A study of Mus musculus with 6 samples.

Results

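Prostaglandins and leukotrienes are lipid mediators that cells make from arachidonic acid, and 10 genes of their synthesis and breakdown were followed in mouse corneal epithelium with and without Rela. The genes were chosen by symbol (Pla2g4a, Ptgs1, Ptgs2, Ptges, Ptges2, Hpgd, Alox5, Alox5ap, Lta4h and Alox15), and all 10 were found among the 17866 genes of the deposited expression table. The data came from 6 bulk RNA-seq libraries of the separated corneal epithelium of C57BL/6 mice aged 6 months, 3 of them labelled wild type (WT) and 3 knockout (KO). In the KO mice Krt14-Cre deleted a floxed allele of Rela, the gene of the NF-κB subunit p65. That Cre acts in keratin 14 lineage epithelium, which includes skin, limbus and conjunctiva beside the cornea, and does not act in leukocytes. No further treatment was named for either group, and each library was a separate biological sample.

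Library totals lay between 20158404 and 20880347 estimated counts, so that 3 counts, taken as the floor of detection in a library, stood for 0.137 to 0.152 CPM (counts per 1000000 after TMM normalization). Such a floor allows for counting error alone. Rela itself, read as a check of the labels, was between 85.7 and 87.8 CPM in WT and between 11.2 and 16.1 CPM in KO, 16.5% of the WT mean. The 6 markers listed for corneal epithelium summed to 68100 to 68900 CPM in WT and 11600 to 14300 CPM in KO, and all 6 were lower in KO. The 5 epidermal markers summed to 15.1 to 20.3 CPM in WT and 11600 to 24000 CPM in KO, and all 5 were higher, so every difference described here stood beside this change of epithelial type. In bulk tissue, fewer cells of a type and less RNA per cell cannot be told apart.

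Arachidonic acid is cut from membrane phospholipids by phospholipases A2. Cyclooxygenases turn it into prostaglandin H2, from which terminal synthases make prostaglandin E2 and the other prostanoids, whereas lipoxygenases turn it into leukotrienes and hydroxy fatty acids. In the cornea these mediators are known for their part in inflammation, pain and wound healing of the surface epithelium.

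Of the 10 genes, 5 were higher in KO (Ptgs2, Ptges, Hpgd, Alox5ap and Alox15), 2 were lower (Pla2g4a and Lta4h) and 3 did not pass the test (Ptgs1, Ptges2 and Alox5), by edgeR's quasi-likelihood test at an adjusted p of 0.05 over 13305 genes. Of all genes tested, 62.0% were called, 31.8% higher and 30.2% lower, so 7 calls among 10 genes were near the background of this comparison. At the study's own threshold, an adjusted p of 0.001 or less and a change of at least 2-fold, 4 of the 10 were higher (Ptgs2, Ptges, Hpgd and Alox5ap) and neither of the lower genes passed, where 19.8% of all genes passed, 11.6% higher and 8.24% lower. The WT and KO values did not overlap for 6 of the 10, against 68.7% of all genes tested. The median log2 fold change of the 10 was 1.46, beside 0.006 over all genes. It falls in a wide gap between Ptgs1 at -0.08 and Ptges at 3.0, so it is near the value of no gene in the set.

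**Figure D1:**
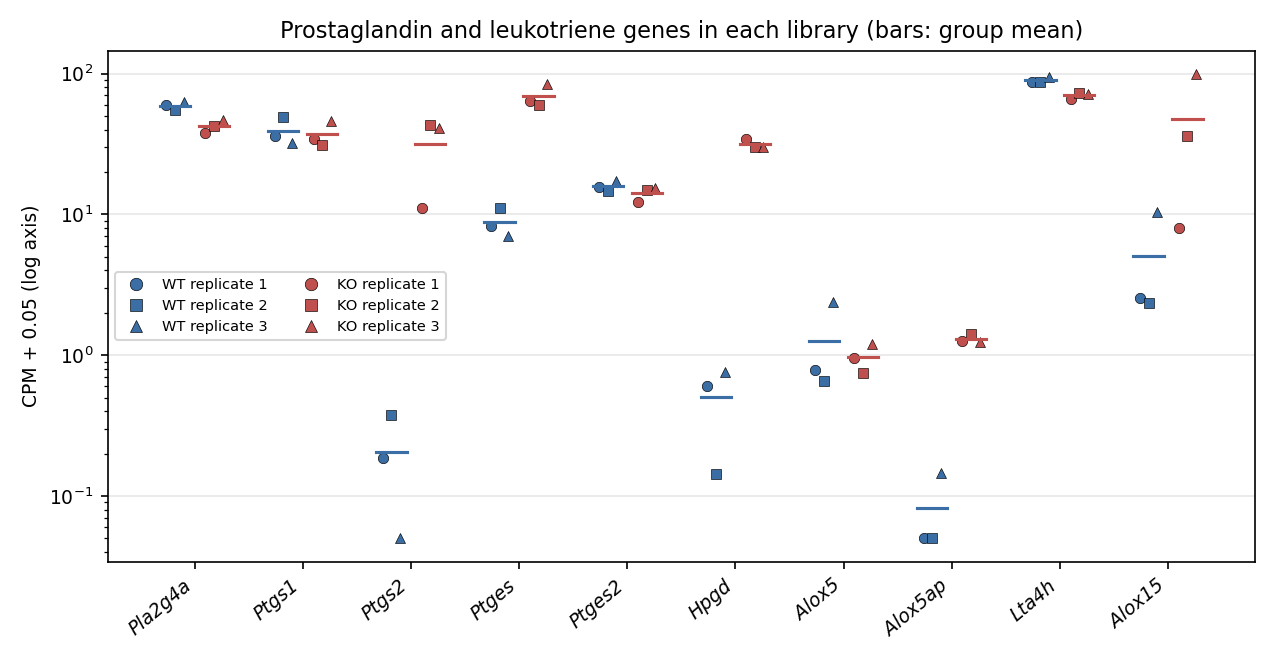
Each point is 1 library's normalized count (CPM, log axis, with a small constant added so that 0 can be drawn) for the 10 genes, with WT in blue, KO in red, a marker shape for each replicate number and a bar at the group mean. Ptgs2, Hpgd and Alox5ap lie near the floor in WT and well above it in KO, whereas the points of Ptgs1, Ptges2 and Alox5 overlap between the genotypes.

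The step that releases arachidonic acid was represented by Pla2g4a, the cytosolic phospholipase A2 (gene 18783, GRCm38 chromosome 1, positions 149829618 to 149961290). It was at 59.4, 55.4 and 63.0 CPM in the WT libraries and at 37.9, 42.1 and 46.6 CPM in the KO libraries. All 3 KO libraries lay below the lowest WT library. The mean was 59.2 ± 3.81 (SD, n = 3) CPM for WT against 42.2 ± 4.35 (SD, n = 3) CPM in KO, so that KO kept 71.3% (log2 fold change -0.49 with an SE of 0.105, edgeR adjusted p = 0.00371).

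Prostaglandin H2 is made by either of the cyclooxygenases, Ptgs1 and Ptgs2. Ptgs1, the cyclooxygenase that most tissues make at a steady level (gene 19224, chromosome 2, positions 36216744 to 36252275), was at 36.1, 49.1 and 32.2 CPM in WT and at 34.4, 31.1 and 45.8 CPM in KO. The genotypes overlapped throughout. The log2 fold change was -0.08 (SE 0.191, edgeR adjusted p = 0.744), and its sign turned when WT replicate 2 was left out (0.13) or KO replicate 2 was (0.03).

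Ptgs2, the inducible cyclooxygenase (gene 19225, chromosome 1, positions 150100031 to 150108234), was read by counts of 3, 7 and 0 in WT, whereas KO gave 220, 853 and 828. In CPM these were 0.137, 0.326 and 0 in WT and 11.1, 42.8 and 41.3 in KO. WT was thus at or near the floor, and every KO library was above it, with KO replicate 1 the lowest of the 3. The mean rose from 0.154 ± 0.164 to 31.7 ± 17.8 CPM (SD, n = 3 each), a log2 fold change of 7.62 (SE 0.781, edgeR adjusted p = 7.04e-05). The size of this fold rests on few WT counts, and it was 8.71 without WT replicate 2. Ptgs2 and Pla2g4a are neighbours on chromosome 1 with 139 kb between them, and they moved in opposite directions.

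The bases just before the start sites are shown for Ptgs2, Ptges and Hpgd, because these were the members of the prostaglandin branch that rose past the study's threshold. Each run is the 250 bases upstream of the RefSeq start, 5′ to 3′ on the gene's strand, on GRCm38.p6. The RefSeq start is that of the deposited span for Ptgs2, but lies 561 bases inside it for Ptges and 15 bases inside it for Hpgd, so these windows fall wholly or partly within the spans given here. They lie at chr1:150099781-150100030 on the plus strand for Ptgs2, chr2:30903298-30903547 on the minus strand for Ptges and chr8:56294302-56294551 on the plus strand for Hpgd. Capitals mark a GC box (GGGCGG on either strand) or a C/EBP motif (TTGCNNAA).
Ptgs2: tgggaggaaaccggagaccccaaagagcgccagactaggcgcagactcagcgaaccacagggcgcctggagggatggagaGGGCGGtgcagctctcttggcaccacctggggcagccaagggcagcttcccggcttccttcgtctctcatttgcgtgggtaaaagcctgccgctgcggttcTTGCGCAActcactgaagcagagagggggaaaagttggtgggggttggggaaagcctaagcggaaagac
Ptges: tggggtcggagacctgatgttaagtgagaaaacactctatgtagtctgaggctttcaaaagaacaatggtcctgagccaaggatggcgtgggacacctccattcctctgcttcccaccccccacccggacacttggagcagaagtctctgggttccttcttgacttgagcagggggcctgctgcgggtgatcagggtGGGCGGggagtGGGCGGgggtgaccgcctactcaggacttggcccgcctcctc
Hpgd: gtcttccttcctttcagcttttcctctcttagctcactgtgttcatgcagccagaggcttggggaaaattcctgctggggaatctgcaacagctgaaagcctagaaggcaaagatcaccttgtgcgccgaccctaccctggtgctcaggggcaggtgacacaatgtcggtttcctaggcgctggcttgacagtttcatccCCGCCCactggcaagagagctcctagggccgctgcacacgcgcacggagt
The C/EBP motif of Ptgs2 lies 69 to 62 bases before the start, and 9.56% of all 32851 RefSeq promoters hold that motif in a window of this length. A GC box is found in 32.7% of them, and Ptgs2, Ptges, Hpgd and Alox5 hold one. The window of Ptgs1 and 1 of the 2 of Pla2g4a lie within the deposited spans, with RefSeq starts 13682 and 38851 bases inside them. The κB motif was searched in a strict form (GGG, A or G, 2 bases of any kind, 2 of C or T, CC) that looser sites do not match. It is found in 7.25% of all promoters and in 0 of the 9 windows of the 8 members matched (Pla2g4a had 2 windows, and Alox5ap and Alox15 were not matched). The motifs CRE (TGACGTCA, 1.55% of promoters) and AP-1 (TGANTCA, 6.75%) were likewise in 0 of the 9. The letters AGGTCA (14%), which retinoid receptors can bind, were in the window of Pla2g4a before its span and a TATA box (TATAAA, 12.4%) was in its other window, and an E-box (CACGTG, 6.02%) was in that of Ptges2. All motifs were searched on both strands and could overlap, a match is a description of these letters, and no match says only that the letters are not in the window.

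Prostaglandin E2 is made from prostaglandin H2 by terminal synthases. Ptges, the inducible membrane-bound synthase (gene 64292, chromosome 2, positions 30889471 to 30903858), was at 8.20, 11.1 and 6.96 CPM in WT and at 64.0, 60.2 and 85.1 CPM in KO. The lowest KO library was well above the highest WT library. The mean rose 7.98-fold, from 8.74 ± 2.11 to 69.8 ± 13.4 CPM (SD, n = 3 each; log2 fold change 3.0, SE 0.202, edgeR adjusted p = 7.93e-06). Ptges2, a second membrane-associated synthase (gene 96979, chromosome 2, positions 32395890 to 32405772), was at 15.6, 14.7 and 17.1 CPM in WT and at 12.2, 14.9 and 15.4 CPM in KO. These values overlapped, and the log2 fold change of -0.16 (SE 0.130) did not pass the test (edgeR adjusted p = 0.318). With a correction for gene length it was -0.39 and passed (adjusted p = 0.0267).

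Hpgd, the dehydrogenase that inactivates prostaglandin E2 (gene 15446, chromosome 8, positions 56294537 to 56321046), was read by counts of 12, 2 and 15 in WT, whereas KO gave 681, 595 and 604. The KO libraries were close to each other, at 34.5, 29.8 and 30.1 CPM, and none of the WT libraries exceeded 0.710 CPM. The mean rose 69.8-fold, from 0.451 ± 0.320 to 31.5 ± 2.61 CPM (SD, n = 3 each; log2 fold change 6.11, SE 0.341, edgeR adjusted p = 3.03e-06). The transcripts of Ptges, 1 of the synthases of prostaglandin E2, and of Hpgd, which inactivates it, were both higher in KO. In TPM (transcripts per 1000000, which allow for length), the ratio of Hpgd to the sum of Ptges and Ptges2 was 0.0314, 0.00511 and 0.0389 in WT and 0.851, 0.725 and 0.566 in KO, a ratio that was not tested.

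Of the enzymes of the leukotriene branch, Alox5 starts the pathway, the protein of Alox5ap presents arachidonic acid to it, and Lta4h makes leukotriene B4. Alox5 (gene 11689, chromosome 6, positions 116410071 to 116461178) was read by counts of 16, 13 and 49 in WT, and KO gave 18, 14 and 23. It was low in every library and the genotypes overlapped, with WT replicate 3 the highest. The log2 fold change was -0.40 (SE 0.527, edgeR adjusted p = 0.532) and was 0.47 without WT replicate 3, so no direction could be given.

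Alox5ap (gene 11690, chromosome 5, positions 149264656 to 149288153) was read by counts of 0, 0 and 2 in WT, whereas KO gave 24, 27 and 24. WT was thus under the floor in each library, and KO was above it in each but at only 1.2 to 1.4 CPM. The KO mean was at least 8.99-fold higher than the floor of 3 counts per library (edgeR adjusted p = 0.000246). The fitted log2 fold change of 5.09 (SE 0.656) is no bound, and it was 7.71 without WT replicate 3. An antisense gene, Gm19719, overlaps Alox5ap, and no source says if reads were assigned by strand.

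Lta4h (gene 16993, chromosome 10, positions 93453396 to 93484896) was at 87.9, 87.8 and 94.1 CPM in WT and at 65.9, 73.2 and 71.2 CPM in KO. Every KO library was below every WT library. The mean fell from 89.9 ± 3.60 to 70.1 ± 3.74 CPM (SD, n = 3 each), which left 78.0% (log2 fold change -0.36, SE 0.0839, edgeR adjusted p = 0.00572).

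Alox15, a lipoxygenase whose products include hydroxy fatty acids and precursors of lipoxins (gene 11687, chromosome 11, positions 70344147 to 70382635), was at 2.49, 2.28 and 10.4 CPM in WT and at 7.90, 36.0 and 99.5 CPM in KO. It was the only called gene of the 10 whose genotypes overlapped, because KO replicate 1 was below WT replicate 3. The mean was 5.05 ± 4.61 CPM for WT against 47.8 ± 46.9 CPM for KO (SD, n = 3 each), so the SD was about as large as the mean in both. The log2 fold change was 3.25 (SE 0.902, edgeR adjusted p = 0.0130), 4.33 without WT replicate 3 and 2.12 without KO replicate 3. With a robust dispersion the call was lost (adjusted p = 0.0741, the highest of 17 alternatives that went down to 0.000832).

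Shares of TPM within a library were compared for the cyclooxygenases, the prostaglandin E synthases and the pair Alox5 and Alox15. That pair is not 1 enzyme step, and it leaves out Alox12, which held 66.8% to 92.3% of the TPM of 7 lipoxygenases in WT. Ptgs2 held 0.249%, 0.434% and 0% of the cyclooxygenase TPM in WT and 17.1%, 47.1% and 36.7% in KO, a difference of 33.4 percentage points. Ptges held 4.81%, 6.03% and 3.63% of the TPM of Ptges, Ptges2 and Ptges3 in WT and 23.7%, 19.3% and 26.5% in KO, a difference of 18.4 points. Alox15 held 72.7%, 75.6% and 83.2% of the TPM of Alox5 and Alox15 in WT and 90.3%, 98.3% and 99.0% in KO, a difference of 18.7 points. In all 3 shares the KO libraries lay above the WT libraries. The two-sided exact permutation p was 0.1 for each, which is the smallest that 3 libraries against 3 allow, and 0.1 after Benjamini-Hochberg adjustment over the 3 shares. Ptgs1 was the larger part of the cyclooxygenase TPM in every library, but in CPM, which are not per length, Ptgs2 held 57.9% in KO replicate 2. In TPM, Ptges exceeded Ptges2 in KO, with a ratio of 0.216 to 0.400 in WT and 2.15 to 2.92 in KO.

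**Figure D2:**
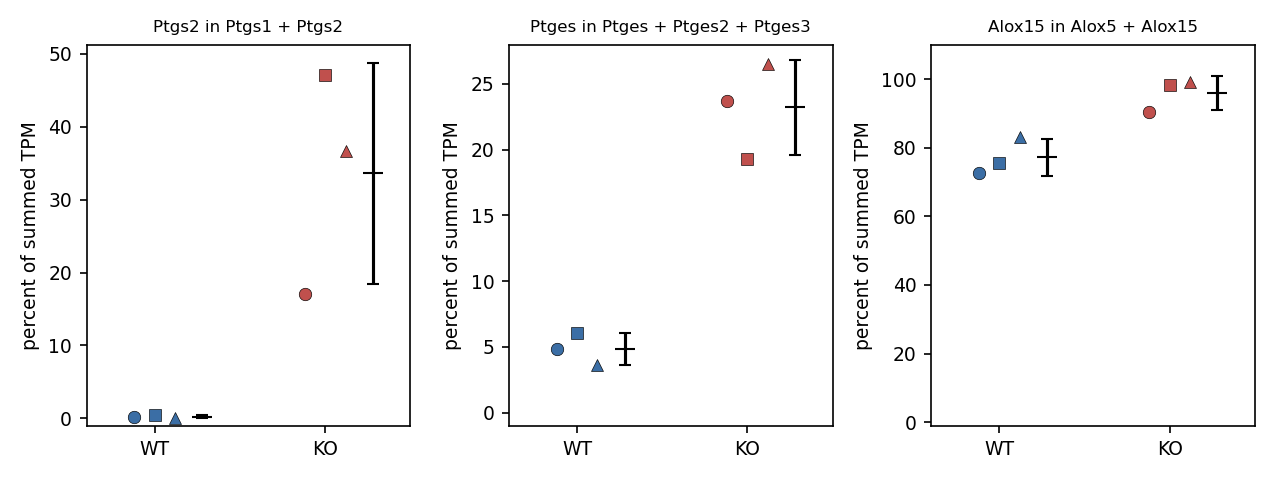
Percent of TPM in each library for 3 shares, Ptgs2 among the cyclooxygenases, Ptges among the prostaglandin E synthases and Alox15 among Alox5 and Alox15, with a point for each library (marker shapes for replicate numbers) and, beside them, the group mean with bars of 1 SD (n = 3) on linear axes. All KO points are above all WT points in each share, and the 3 KO values of Ptgs2 spread from 17.1% to 47.1%.

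On the TPM scale, where levels of different genes can be set side by side, Lta4h was the highest of the 10 in WT at 96.5 ± 1.64 TPM, followed by Pla2g4a at 45.7 ± 2.41, Ptgs1 at 29.2 ± 6.98 and Ptges2 at 17.9 ± 0.994 (SD, n = 3 each). These 4 did not overlap. Below them came Ptges at 5.29 ± 1.35, Alox15 at 3.86 ± 4.06, Alox5 at 0.930 ± 0.695, Hpgd at 0.580 ± 0.404, Ptgs2 at 0.0767 ± 0.0802 and Alox5ap at 0.0733 ± 0.127 TPM, and each of these overlapped the next in this order. In KO, Lta4h was at 59.5 ± 3.19 TPM, and Alox15 at 33.8 ± 33.3, Ptges at 33.1 ± 5.90 and Hpgd at 32.1 ± 2.76 TPM overlapped one another, with Alox15 spread so widely (5.21 to 70.4 TPM) that it also reached Lta4h. Pla2g4a at 25.7 ± 2.43 overlapped Ptgs1 at 22.3 ± 4.36 TPM, and Ptges2 at 12.7 ± 1.53 overlapped Ptgs2 at 12.3 ± 6.92 TPM. Alox5ap at 2.26 ± 0.171 and Alox5 at 0.567 ± 0.130 TPM were the lowest. In KO the transcript of Alox5ap was thus above that of Alox5, whereas in WT each library of Alox5ap was below each of Alox5. Both rest on few counts in KO (24, 27 and 24 for Alox5ap, and 18, 14 and 23 for Alox5), and protein was not measured here. TPM of different genotypes were not compared gene by gene, because the TPM of the median tested gene was 0.795-fold in KO.

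A further 59 genes of eicosanoid synthesis, transport and reception were listed, of which 55 were in the table and 38 were tested. Of these, 15 were higher in KO, 10 were lower and 13 were not called, so 65.8% were called beside 62.0% of all genes. The excess of higher calls depended on the scaling, with 15 higher and 14 lower by total counts, and 14 of each by limma on log2(FPKM + 1) or with the length correction. At the study's threshold 13 of the 38 were higher and 3 lower, where 11.6% of all genes tested were higher and 8.24% lower. The median log2 fold change of the 38 was 0.42. The counts by family and by marker list that follow are at an adjusted p of 0.05. At that level 31.8% of all genes were called higher and 30.2% lower. Another 17 were too low to be tested, and 8 of them did not exceed 3 counts in any library: Pla2g2e, Ptgis, Ptger2, Ptgdr2, Ptgir, Ptgfr, Tbxa2r and Cysltr2.

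Of 14 tested phospholipases A2, 6 were higher, 4 were lower and 4 were not called. The 4 cytosolic forms of a cluster on chromosome 2, within 281 kb, were all among the higher ones, whereas Pla2g4a was lower. Pla2g4d had 0 counts in every WT library and 1808, 672 and 1168 in KO, at least 438-fold above the floor (edgeR adjusted p = 4.58e-05). Pla2g4e gave counts of 3, 3 and 1 in WT, and of 844, 677 and 1179 in KO, at least 323-fold above it (edgeR adjusted p = 8.85e-07). Pla2g4f rose from 6.79 ± 1.37 to 67.9 ± 9.55 CPM (SD, n = 3 each), a log2 fold change of 3.32. Pla2g4b rose by a log2 fold change of 2.57, but its counts were not whole and it overlaps the gene Gm28042, so its value is uncertain. In TPM, Pla2g4a held 79.4% to 84.4% of the sum of the 6 Pla2g4 genes in WT and 13.6% to 24.7% in KO. The secreted forms Pla2g2f (log2 fold change 3.12) and Pla2g3 (5.39, overlapping Inpp5j on the other strand) were also higher. Pla2g7, which inactivates platelet-activating factor, fell by 1.78 on the log2 scale, and Pla2g15, Pla2g5 and Pla2g16 fell by 1.74, 1.45 and 1.18.

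Of 6 other prostanoid synthases tested, 3 were higher and 2 lower. Hpgds, which makes prostaglandin D2, fell from 111 ± 17.4 to 46.4 ± 8.30 CPM (SD, n = 3 each; log2 fold change -1.26, edgeR adjusted p = 0.000241). Akr1c18, an aldo-keto reductase of prostaglandin F and progesterone metabolism, rose from 3.97 ± 0.968 to 47.7 ± 9.78 CPM (SD, n = 3 each; log2 fold change 3.58, edgeR adjusted p = 4.79e-06). Fam213b, a prostamide and prostaglandin F synthase, which overlaps Mmel1, rose by a log2 fold change of 3.13. Ptges3, the cytosolic synthase of prostaglandin E2 and a chaperone partner, rose by only 0.50, and Cbr1, a carbonyl reductase, fell by 0.29. Of 4 genes of transport and breakdown, 2 were lower, the exporter Abcc4 (log2 fold change -0.48) and the reductase Ptgr2 (-0.93). The uptake carrier Slco2a1 (log2 fold change 0.67, edgeR adjusted p = 0.149) and the reductase Ptgr1 (-0.47, edgeR adjusted p = 0.0503) did not pass.

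Receptors of prostanoids were scarce. Ptger4, a receptor of prostaglandin E2, gave counts of 22, 31 and 30 in WT, and of 88, 87 and 111 in KO, without overlap (log2 fold change 1.89, SE 0.234, edgeR adjusted p = 0.000196). Ptger1, another receptor of prostaglandin E2, fell by 1.71 on the log2 scale (edgeR adjusted p = 0.00461), with counts that were not whole, so its value is uncertain. The other 7 prostanoid receptors were not tested, and Ptgdr was at 0 in every WT library and at 8.51, 11.4 and 12.7 counts in KO. Of the receptors of leukotrienes and related lipids, Ltb4r1, the high-affinity receptor of leukotriene B4, was higher (10.7 ± 1.71 CPM in WT and 23.7 ± 3.75 in KO, SD, n = 3 each, log2 fold change 1.15, edgeR adjusted p = 0.000368), but its counts were not whole, and its neighbour Ltb4r2 lies 0.983 kb away.

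Of 5 other lipoxygenases, 2 were higher, 1 was lower and 2 were not called. Alox12b and Aloxe3, the lipoxygenases of the epidermal barrier, are neighbours on chromosome 11. Alox12b gave counts of 5, 24 and 12 in WT, and of 9401, 5176 and 8977 in KO (log2 fold change 9.26, SE 0.439, edgeR adjusted p = 1.55e-06, and 9.94 without WT replicate 2). Aloxe3 gave counts of 3, 5 and 4 in WT, and of 1862, 1068 and 1413 in KO (log2 fold change 8.56, SE 0.327, edgeR adjusted p = 5.65e-07). These rises stood beside those of the epidermal markers given above. Alox12 fell by 0.80 on the log2 scale. Together Alox12b and Aloxe3 held 0.401% to 1.49% of the TPM of the 7 lipoxygenases in WT and 69.8% to 87.8% in KO, whereas Alox5 and Alox15 together held 2.28% to 7.52% and 1.21% to 13.6%, which overlapped. In the branch to leukotriene C4, Mgst2 rose from 2.30 ± 0.228 to 22.6 ± 1.18 CPM (SD, n = 3 each; log2 fold change 3.30, edgeR adjusted p = 7.76e-07). Ggt5, which splits leukotriene C4, passed the test at a log2 fold change of 1.56 with overlapping groups, and lost the call in 10 of 16 alternatives (adjusted p between 0.0135 and 0.122). Its call was lost without WT replicate 1 or 2 or KO replicate 1 or 2, and the value was 2.35 without WT replicate 3.

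**Figure D3:**
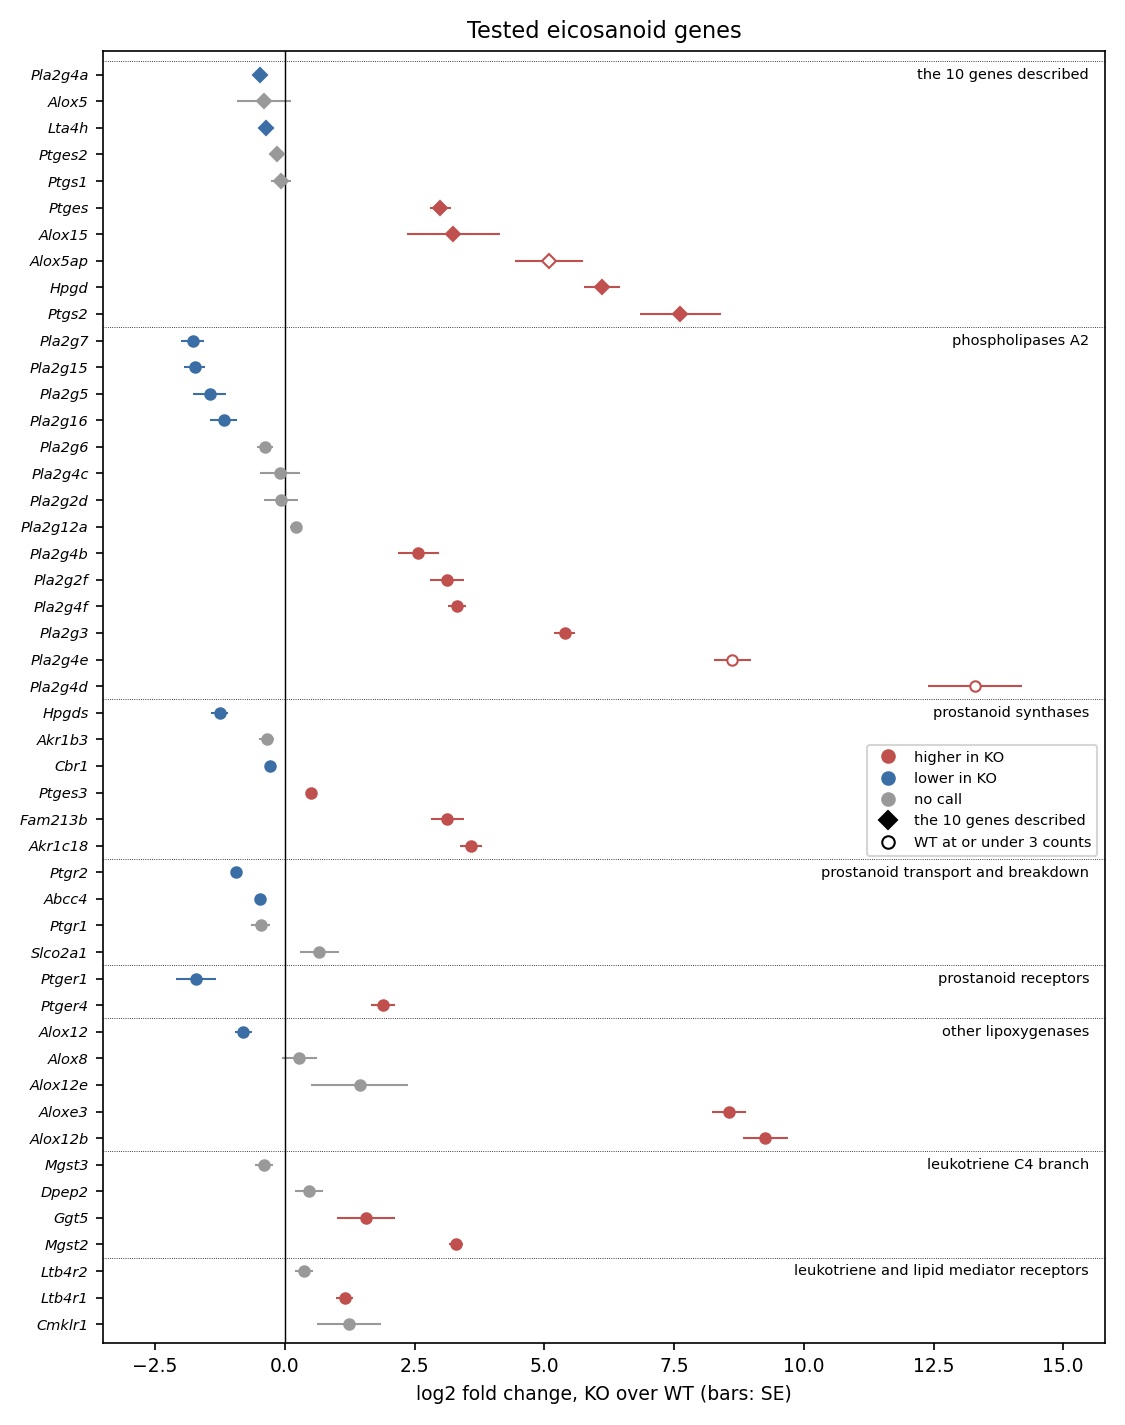
The log2 fold change of KO over WT with its SE is drawn for the 10 genes (diamonds) and the 38 other tested eicosanoid genes (circles), grouped by role, with red for higher, blue for lower and grey for no call at an adjusted p of 0.05, and open symbols where WT did not exceed 3 counts in any library, so that the position is no bound. The points run from Pla2g7 at -1.78 to Pla2g4d at 13.31, and the 2 lower members, Pla2g4a and Lta4h, changed by less than 0.5.

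Among the 3 KO libraries, replicate 1 was the lowest for Ptgs2 (11.1 CPM against 41.3 and 42.8) and for Alox15 (7.90 CPM against 36.0 and 99.5), and, by less, for Pla2g4a, Ptges2 and Lta4h, but not for the other 5 genes. It also stood apart in some epithelial markers, with Flg at 1949 CPM against 286 and 340 and Lor at 3056 against 867 and 1082. Krt1 was at 10290 against 2765 and 5067, and Krt12 was the lowest at 5555 CPM against 7770 and 8038. Tkt and Upk1b were also lowest there, and Krt10 was highest by less (7415 against 6227 and 6995). The corneal markers Pax6 (270 against 239 and 244) and Aldh3a1 (4248 against 4176 and 3915), however, were highest in KO replicate 1. Krtdap and Slurp1 lay between the other KO libraries. Alox12e, which lies within 141 kb of Alox15 on chromosome 11, had 227 counts in KO replicate 1 and 1233 and 878 in the others. In WT it had 74, 62 and 780 counts, so WT replicate 3 was the highest for Alox12e, as it was for Alox15 and Alox5. The platelet marker Ppbp, a chemokine, had 442, 1124 and 1116 counts in the KO libraries, and the histamine enzyme Hdc had 7, 61 and 52. The part of these differences between libraries in the eicosanoid genes was not tested. Alox12e, Ppbp and Hdc were chosen for this order after their values were seen. Alox12e did not pass the test between genotypes (log2 fold change 1.44, SE 0.939, edgeR adjusted p = 0.212).

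**Figure D4:**
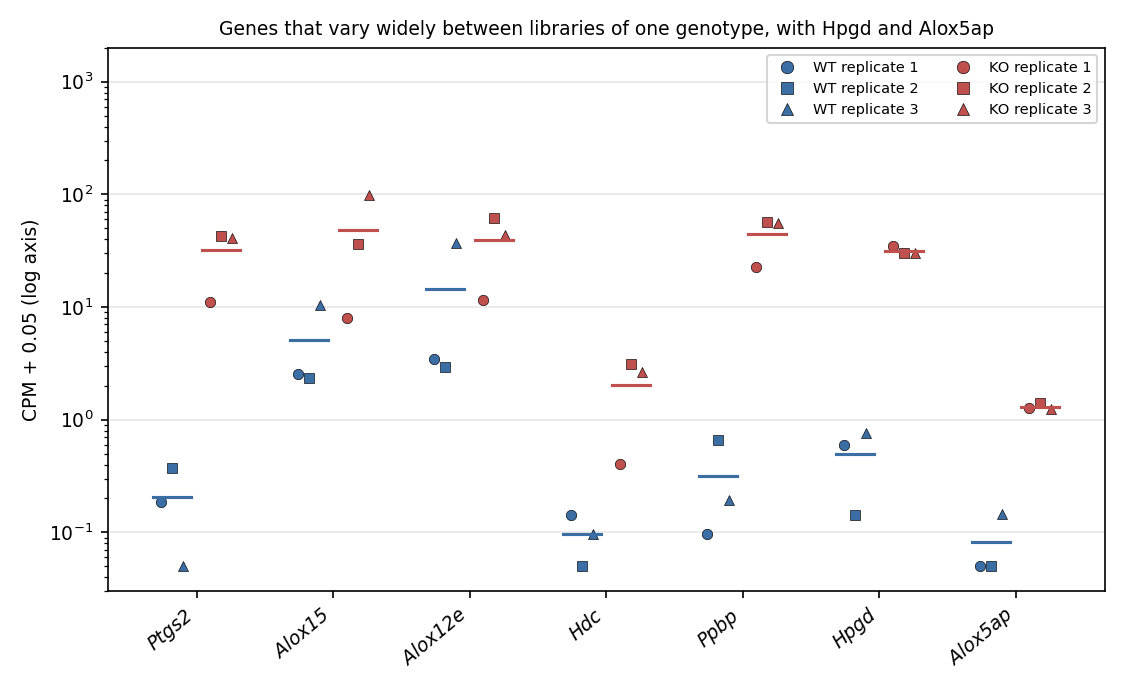
Each point is 1 library's CPM, plus a small constant on a log axis, for Ptgs2, Alox15, Alox12e, Hdc and Ppbp, which differ widely between libraries of the same genotype, and for Hpgd and Alox5ap, which do not within KO. Circles, squares and triangles are replicates 1, 2 and 3, bars are group means, and the KO circle is the lowest red point for the first 5 genes.

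Several of the 10 genes are also expressed by leukocytes, so the marker lists of other cell types were read beside them. Of 10 markers of leukocytes and macrophages, 9 were tested, 7 were higher in KO and 1, Itgam, was lower. Ptprc, carried by nearly all leukocytes, gave counts of 13, 5 and 8 in WT, and of 105, 87 and 123 in KO, and the macrophage marker Adgre1 had 1, 0 and 1 and then 31, 33 and 42. The sum of the list was 269 to 340 CPM in WT and 200 to 281 CPM in KO, most of it Itgam (233 to 307 CPM in WT). All 5 markers of Langerhans and dendritic cells were higher, with sums of 7.26 to 16.4 CPM in WT and 85.9 to 159 CPM in KO, and the 3 tested T-cell markers of 6 were higher, with list sums of 0.702 to 0.779 and 3.28 to 7.17 CPM. The Langerhans and dendritic list, the tested T-cell markers and 7 of the leukocyte markers were thus higher in KO beside Ptgs2, Ptges, Hpgd, Alox5ap and Alox15. The leukocyte sum was not higher, but it mostly follows Itgam, which was lower in KO (137 to 202 CPM), and so does not show the rise of those 7. The remaining tested marker, Cd68, was not called. The part of these markers in the differences of the eicosanoid genes was not tested.

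Of the 5 neutrophil markers, 2 were higher and 1 was lower, with sums of 6.44 to 14.3 CPM in WT and 8.13 to 11.5 CPM in KO. The 3 eosinophil markers did not exceed 3 counts in any library, and their sums reached 0.0474 CPM in WT and 0.0997 CPM in KO. The 6 mast cell markers summed to 0.744 to 1.14 CPM in WT and 0.557 to 3.51 CPM in KO, and 3 of them did not exceed 3 counts in any library. The only tested one, Cpa3, was lower in KO (19, 16 and 23 counts in WT, then 2, 4 and 6, log2 fold change -2.13, edgeR adjusted p = 0.00268), and the higher sums in KO were those of Hdc, which was not tested. Goblet cell markers were higher for 3 of 3 tested, with sums of 1.06 to 2.08 CPM in WT and 7.22 to 29.4 CPM in KO. Of the markers of fibroblasts and keratocytes 4 of 5 tested were higher (Vim, Col1a1, Col1a2 and Dcn) and 1, Pdgfra, was lower. Their list summed to 13.3 to 16.9 CPM in WT and 15.0 to 24.4 CPM in KO. Most of the WT sum was Pdgfra, at 10.9 to 15.6 CPM in WT and 1.05 to 1.40 CPM in KO. The sums thus do not show the rise of the other 4. Endothelial markers were higher for 1 of 2 tested, with sums of 1.24 to 1.85 and 2.21 to 3.29 CPM. Platelet markers were higher for 1 of 3 tested, with sums of 24.5 to 29.7 and 63.2 to 89.0 CPM. That 1 was Ppbp (at most 0.605 CPM in WT and 22.4 to 56.4 CPM in KO), while Gp1bb and Itga2b were not called (edgeR adjusted p = 0.382 and 0.12) and Pf4 did not exceed 5 counts. The summed level of the 10 eicosanoid genes themselves was 211 to 227 CPM in WT and 270 to 437 CPM in KO.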

How the data were processed

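RNA was measured in 6 libraries of corneal epithelium, 3 WT and 3 KO, grouped by title and genotype label. The methods describe depletion of ribosomal RNA and single-end reads of a BGI machine, while an Illumina kit stands in the labels. SOAPnuke (filtering), Bowtie2 2.2.5 (alignment) and RSEM 1.2.12 (quantification) were used by the authors (versions from the submitters' processing notes). The deposited estimated counts were made by the authors with RSEM, which divides shared reads among genes, and 34.1% to 36.1% of the nonzero values were not whole. The FPKM values deposited by the authors divide these counts by effective length and depth, and the deposited TPM values are scaled to a fixed sum per library. The submitters' notes name mm9, but the coordinates in the deposited table are those of GRCm38. The authors' own fold changes and adjusted p-values from DESeq2 stand in the same table and were not used.

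The rounded estimates entered the quasi-likelihood test of edgeR 4.0.16 under R 4.3.3, with genotype as sole term, TMM, filterByExpr, glmQLFit and glmQLFTest, with Benjamini-Hochberg adjustment over 13305 genes. The SE is the absolute log2 fold change over the square root of F. CPM were scaled by TMM factors of 1.01 to 1.05 in WT and 0.952 to 0.990 in KO. Where a group did not exceed 3 counts in any library, the other group's mean was set against 3 counts per library as a lower bound. Shares of TPM were compared by an exact permutation test, with the Benjamini-Hochberg adjustment of scipy 1.17.1. The fit was tested on simulated data with 200 changed genes, equally many in each direction, and the same dispersion for all genes. In the real comparison 62.0% of genes were called and the spread differed between genes. The simulation thus does not cover the scaling of these data or genes near the floor.

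The 10 genes, the other pathway genes, the marker lists and the tests were chosen with earlier results of these data known. The rule for naming other pathway genes was an adjusted p under 0.05, a change of at least 2-fold and a mean of at least 10 counts in the higher group. Ptges3, Cbr1, Abcc4, Ptgr1, Ptgr2, Slco2a1, Ptgdr, Alox12, Alox12e and single markers were named after their values were seen, and so were the motifs and the shares within the Pla2g4 and lipoxygenase families. Alternatives were RLE factors, total counts, TMM without the 20 highest genes, DESeq2 1.42.0, no filter, a mean of at least 50 counts, robust dispersion, limma 3.58.1 on log2(FPKM + 1) and log2(FPKM + 0.1), a length correction, a replicate block and leaving out each library. Of the 10 genes, 5 overlap another annotated gene and 0 overlap a protein-coding one, and estimated counts were not whole in some library for 3 (Ptgs1, Ptges and Alox15). The 4 listed genes Pla2g1b, Pla2g2a, Pla2g10 and Oxgr1 and 6 listed markers were not analysed here. The p-values measure the spread between these samples, which the study's methods call independent.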

Additional observations from a re-analysis of the deposited data

How the results depend on the processing

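Of the 7 called genes among the 10, Pla2g4a, Ptgs2, Ptges, Hpgd and Lta4h kept direction and call in 17 of 17 alternatives, Alox5ap in 16 of 16 and Alox15 in 16 of 17. Alox15 lost its call with a robust dispersion (log2 fold change 3.25, adjusted p = 0.0741), and the cause was not tested. Ptges2 was called lower with the length correction (-0.39, adjusted p = 0.0267), under which the median gene moved by -0.159 and 38.8% of calls were higher (3254 higher and 5143 lower) beside 51.3% otherwise (4231 and 4022), and the other pathway genes gave 14 calls each way in place of 15 and 10. With total counts only, 44.5% of calls were higher, and 44.6% and 44.8% with limma on log2(FPKM + 1) and log2(FPKM + 0.1); the 10 genes gave 5 higher and 2 lower under these 3. With limma on log2(FPKM + 1), 987 genes were higher at the study's threshold in place of 1543, since the added 1 shrinks changes of low genes. Leaving out 1 library at a time, the log2 fold change ranged from -0.26 to 0.13 for Ptgs1 and from -0.72 to 0.47 for Alox5, so both changed sign, and neither was called. The share of Ptges differed by 27.4 percentage points in CPM, which are not per length, in place of 18.4. Under the filter on a mean of 50 counts Alox5, Alox5ap, Pla2g5 and Ggt5 had no value.

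The replicate numbers come from the sample titles, which do not say if same-numbered WT and KO samples belong together. Deviations from the group means correlated at -0.01 to 0.061 between same-numbered samples and at -0.159 to 0.123 between differently numbered ones. Correlations over all genes with so few samples cannot exclude a pairing. With a replicate block the SE fell for Alox15 (0.902 to 0.386), Ptgs2 (0.781 to 0.436) and Alox5 (0.527 to 0.390), and by less for Pla2g4a and Ptges2. It rose for Alox5ap (0.656 to 0.751), Ptgs1, Ptges and Lta4h, and stayed at 0.341 for Hpgd. With the replicate block 4149 genes were higher and 3934 lower, the 10 genes kept 5 and 2 calls, and Ggt5 lost its call (adjusted p = 0.0781). Depth limits Ptgs2, Hpgd and Alox5ap in WT, where few counts set the size of the fold, and Alox5 in both genotypes.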
